A study of Mus musculus with 24 samples.

Results

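WT resting Th2 cells were compared with WT resting Naïve CD4+ T cells on 6 of the 24 arrays of a series on BAF180 (Pbrm1), a subunit of the PBAF form of the SWI/SNF chromatin remodeling complex. Each state had 3 arrays, labelled A, B and C, and all genes measured on them were described. The Naïve cells were those that a kit for naive CD4+ cells selected, at a purity of 95%, from lymphoid organs (spleen, lymph nodes) of mice aged 4 to 6 weeks. The strain is Balb/c in the labels and a mixed background in the methods. For Th2 cells, such naive cells were plated on anti-CD3 (1 µg/ml) and anti-CD28 (2 µg/ml) with 10 ng/ml IL-4 and 10 µg/ml anti-IFN-gamma, were given 100 U/ml IL-2 after 24 hours and were expanded in IL-2 from day 3. They were not restimulated before RNA was made. Further groups used here for side by side values were WT Naïve cells stimulated for 24 hours with the same antibodies to CD3 and CD28, WT Th2 cells given PMA and ionomycin, and the BAF180-deficient resting cells, in which Cre driven by the CD4 promoter deletes Pbrm1 in T cells. Per the legends, 3 mouse pairs (WT with BAF180-deficient) gave the RNA. Which mouse a letter stands for, and whether Naïve and Th2 cells of a letter share one, is not given in the sources used here, so the p-values measure the spread between these samples.

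A naive CD4 T cell that meets its antigen together with IL-4 signals through STAT6, raises the transcription factor GATA3 and opens the locus that holds the genes for IL-4, IL-5 and IL-13. The resulting Th2 cell helps B cells to switch to IgE and directs eosinophils and mast cells in allergy and worm infection. Differentiation takes place while the cells divide and switch to a metabolism of growth. Th2 cytokine genes are transcribed mainly after restimulation, and resting Th2 cells carry less of those messages.

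Values are log2 intensities after background correction and quantile normalization, on which an undetected probe lies near 4.2. Of the 10419 genes tested, 3700 (35.5%) differed between resting Th2 and resting Naïve cells at an adjusted p below 0.05 (limma). These were 1864 genes that rose (17.9%) and 1836 that fell (17.6%). At least 2-fold changes were found in 809 genes that rose (7.76%) and in 835 that fell (8.01%). The 2 groups of arrays did not overlap in 3408 of the 3700 genes called, against 4542 of all 10419 genes (43.6%). The median difference over all genes was 0.002 and the median standard error 0.194. When arrays were centred on their median in place of quantile normalization, the median over probes moved from 0.0303 to 0.321 and the share of calls that were higher rose from 50.4% to 83.5% (55.8% with Z-scores), so all directions below are relative to the bulk of genes. The arrays measure RNA of whole preparations, in which fewer cells of a type and less RNA per cell cannot be told apart.

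**Figure D1:**
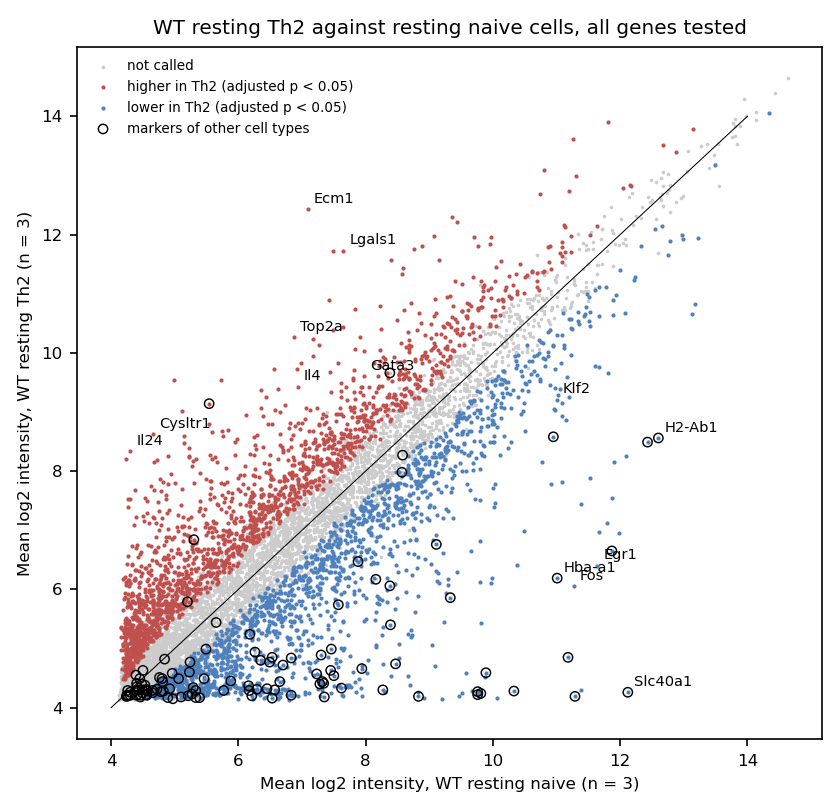
Mean log2 intensity of each tested gene in WT resting Naïve cells (horizontal axis) and WT resting Th2 cells (vertical axis), 3 arrays each, with genes that rose in red, genes that fell in blue, genes not called in grey and markers of other cell types circled. Calls lie on both sides of the line of equal level, and many circled markers lie at the bottom, at the level of undetected probes in Th2 cells.

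The first principal component of the 6 arrays held 71.4% of the variance and separated the states. Replicate arrays correlated at 0.974 to 0.984 among Th2 and 0.949 to 0.972 among Naïve cells, and 9516 to 10378 probes were detected on Th2 arrays against 8047 to 9498 on Naïve arrays. Naïve replicate C stood apart from the other Naïve arrays on the second component (-40, against 28.4 for A and 6.71 for B). Among the 835 genes that were at least 2-fold lower in Th2 cells, replicate C was at least 2-fold below both other Naïve arrays in 65 and at least 2-fold above both in 33. The same counts were 14 and 13 for replicate A, and 12 and 4 for replicate B. Without replicate C 1839 genes rose and 1970 fell, and single genes for which it mattered are named below with their values. BAF180-deficient Naïve replicate C was low for some of the same genes. Replicates A, B and C measured 8.11, 8.04 and 5.96 for Cdkn1a and 7.53, 7.58 and 5.45 for Il10. For Top2a, highest on WT replicate C among Naïve arrays, they measured 6.94, 6.89 and 6.87. Whether the shift goes with the letter was not tested.

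The labelled cells were checked against their defining markers. Transcripts of the T cell receptor complex and of CD4 were detected on all 6 arrays. Cd3g measured 11.57, 12.02 and 12.18 in Naïve cells A, B and C, and 12.16, 11.80 and 11.57 in Th2 cells A, B and C. Cd4 measured 5.66, 5.76 and 5.15 against 5.26, 6.01 and 5.55, not far above background. Cd3g (difference -0.08), Cd4 (0.08), Cd28 (-0.15), Lck (-0.35) and Cd3e (-0.55) did not pass the test. Cd3e did pass without Naïve C (-0.72, adjusted p = 0.0325), without Th2 B (-0.73, 0.0351) and with Z-scores (-0.85, 0.0357), and Lck with Z-scores (-0.85, 0.0103). Cd3d was higher by 0.70 with an adjusted p of 0.0296, which did not hold without Naïve A (0.122), Naïve C (0.0567), Th2 A (0.0581) or Th2 B (0.109). Of the naive markers, Ccr7 and Tcf7 fell and the brightest probe of Lef1 did not pass the test. Of the Th2 markers, Gata3, Il4, Ccr4 and Ccr8 rose, Il5 and Il13 were detected on no Naïve array and on only 1 and 2 Th2 arrays, and Il1rl1, which encodes the IL-33 receptor, was not well above background on any of the 6.

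Among the 17 measured genes of Th2 transcription factors and IL-4 signalling, 7 rose (41.2%, against 17.9% of all genes), 2 fell (11.8%, against 17.6%) and 8 did not pass the test, with a median difference of 0.10. Gata3, the factor that sets the Th2 fate, measured 8.16, 8.0 and 7.77 in Naïve cells and 9.75, 9.27 and 9.77 in Th2 cells. All Th2 arrays lay above all Naïve arrays, and the rise was 1.62 ± 0.18 (SE, adjusted p = 5.98e-07). Crem, a cAMP response factor (1.94), Batf, the AP-1 partner of IRF4 (1.19), and Gfi1, a repressor that favours Th2 cell growth (0.93), rose as well. Il4ra, the IL-4 receptor chain, was not well above background on any Naïve array and measured 6.22, 4.92 and 4.77 in Th2 cells, at least 1.36-fold higher (adjusted p = 0.00196). Such bounds set the mean of the detected group against the lowest signal that counted as detected on each array of the other group. The fitted difference of Il4ra, 1.05, was 0.59 without Th2 A.

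The rises of Nfil3 and Irf4 rested in part on Naïve C. Nfil3, a basic leucine zipper factor, measured 9.58, 9.45 and 7.50 in Naïve cells and 11.28, 10.81 and 9.96 in Th2 cells (1.84, adjusted p = 0.00715), and without Naïve C it was 1.17 with an adjusted p of 0.0552. Irf4, needed for Th2 differentiation, measured 7.58, 7.25 and 5.68 against 8.42, 7.70 and 8.21 (1.27, adjusted p = 0.0175), and was 0.69 (0.133) without Naïve C, 1.12 (0.0718) without Th2 A and 1.22 (0.0514) without Th2 C. Junb, an AP-1 factor that binds the Il4 promoter, went the other way. It measured 12.40, 12.33 and 11.54 in Naïve cells and 7.72, 8.17 and 8.86 in resting Th2 cells, a fall of 3.84 on the log2 scale (adjusted p = 9.53e-09). Ets1 fell by 1.09 on the log2 scale, and was not called with median centring (-0.18). Stat6 (0.10) did not pass the test, and Maf was not well above background in either state.

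Of 10 measured Th2 cytokine genes, 3 rose (30.0%, against 17.9% of all genes), 1 fell (10.0%, against 17.6%) and 6 did not pass the test, with a median of 0.27. Il4 measured 7.07, 7.22 and 6.51 in Naïve cells and 10.19, 9.74 and 8.35 in Th2 cells, with no overlap, and rose by 2.49 ± 0.49 (SE, adjusted p = 0.000447). Il24, a cytokine of the IL-10 family, was not well above background on any Naïve array and measured 9.43, 8.83 and 6.76 in Th2 cells, at least 11.2-fold higher (adjusted p = 1.63e-06). Its fitted difference of 4.04 was 4.83 without Th2 C. Lif, a cytokine of the IL-6 family, was at least 1.43-fold higher. Areg, which encodes the growth factor amphiregulin, measured 6.43, 6.20 and 5.6 in Naïve cells and was not well above background in Th2 cells, at least 2.79-fold lower (adjusted p = 0.000279). Il10, the cytokine the study is about, measured 7.01, 7.62 and 5.6 in Naïve cells and 7.73, 7.79 and 6.84 in Th2 cells. The groups overlapped, the difference of 0.71 did not pass the test (adjusted p = 0.354) and was 0.14 without Naïve C and 1.15 without Naïve B, and median centring gave 1.47 with an adjusted p of 0.0431.

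Of 20 measured Th2 surface receptor and effector genes, 6 rose (30.0%, against 17.9% of all genes) and 2 fell (10.0%, against 17.6%). Only 1 fell without Naïve A, Naïve C, Th2 B or Th2 C. The median was 0.20, or 0.13 with undetected genes at their bound. Ecm1, an extracellular matrix protein known for the exit of Th2 cells from lymph nodes, measured 7.36, 6.80 and 7.10 in Naïve cells and 12.59, 12.04 and 12.65 in Th2 cells. Its rise of 5.34 ± 0.19 (SE, adjusted p = 2.32e-14) was the largest fitted rise of all genes tested. Cysltr1, a receptor for cysteinyl leukotrienes, was detected on only 1 Naïve array and measured 9.03, 8.53 and 8.32 in Th2 cells (3.98, adjusted p = 7.23e-11). Ptgir, the prostacyclin receptor, was at least 2.78-fold higher and Plcd1, a phospholipase C, at least 1.35-fold higher. The chemokine receptor genes moved less. Ccr4 was at least 1.10-fold higher (adjusted p = 0.00232), and Ccr8 rose by 0.82 (adjusted p = 0.0321), a call lost without Naïve C (0.51, adjusted p = 0.186), Th2 A (0.82, 0.0724) or Th2 B (0.71, 0.108).

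The 2 genes of this list that fell were near background. Hpgds, a prostaglandin D2 synthase, was detected on 2 Naïve arrays and no Th2 array, at least 1.32-fold lower, a call lost without Naïve A (0.0898). Il17rb, a chain of the IL-25 receptor, was detected on only 1 of the 6 arrays and lost its call without any 1 array other than Naïve A. Icos, a costimulatory receptor, did not pass the test with its brightest probe (0.82, adjusted p = 0.0795), while another of its probes rose by 2.02 (adjusted p = 7.84e-06). Tnfrsf4, which encodes the costimulatory receptor OX40, measured 6.03, 8.41 and 7.73 against 8.19, 9.86 and 8.94 and did not pass the test (1.61, adjusted p = 0.116, and 0.93 without Naïve A).

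**Figure D2:**
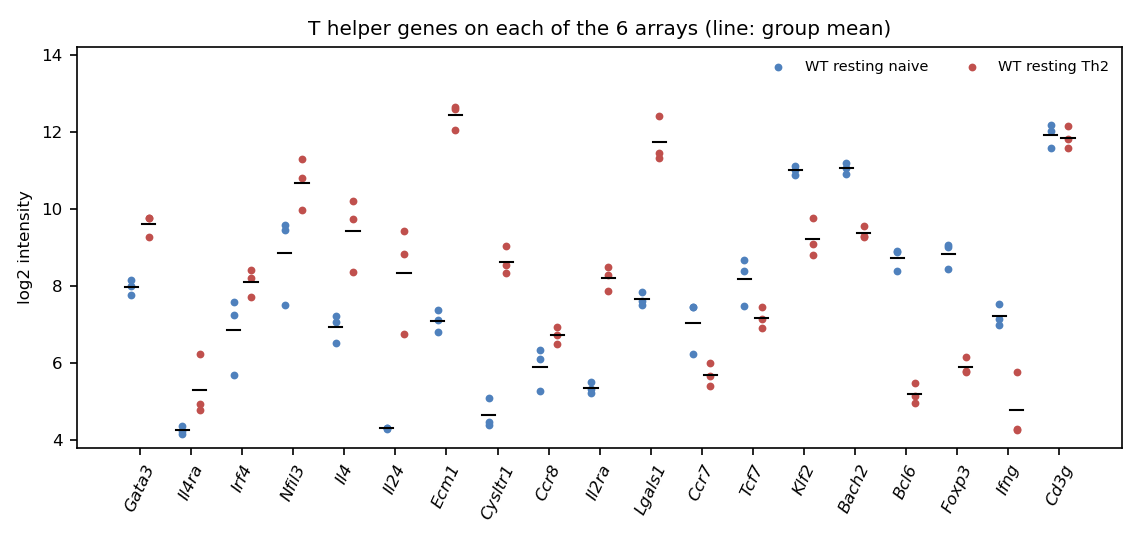
Log2 intensity of 19 T helper genes on each of the 3 WT resting Naïve arrays (blue) and 3 WT resting Th2 arrays (red), with a line at each group mean. Ecm1 and Cysltr1 lie well above their Naïve levels and Bcl6 and Foxp3 well below, the groups overlap for Cd3g, and 1 Naïve array is low for Nfil3 and Irf4.

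Genes of the other T helper fates rarely rose. Of 26 measured, 1 rose, 10 fell and 15 did not pass the test (38.5% lower, against 17.6% of all genes), with a median of -0.35, and with median centring 2 rose and 7 fell. Bcl6, the factor of follicular helper cells, measured 8.90, 8.87 and 8.38 in Naïve cells and 5.48, 4.96 and 5.14 in Th2 cells, a fall of 3.52 on the log2 scale (adjusted p = 3.98e-08). Cxcr5, the follicular homing receptor, fell by 1.61 on the log2 scale (not called with median centring, adjusted p = 0.0812). Of Th1 genes, Ifng measured 7.15, 7.52 and 6.97 in Naïve cells and was detected on only 1 Th2 array (4.29, 5.77 and 4.25, adjusted p = 8.74e-05). Il18r1, a chain of the IL-18 receptor, fell by 2.65 on the log2 scale, and Cxcr3, a Th1 chemokine receptor, fell by 1.01 on the log2 scale (-0.62 without Th2 B, adjusted p = 0.0617). Rora (-2.19) and Ccr6 (-2.65), linked to Th17 cells, fell as well. The 1 gene that rose was Il12rb1, a chain shared by the IL-12 and IL-23 receptors (1.40, adjusted p = 0.000319). The defining Th1 factor Tbx21 was detected on 2 of the 6 arrays.

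Most naive T cell genes fell. Of 39 measured genes of quiescence and homing, 23 fell (59.0%, against 17.6% of all genes), 2 rose and 14 did not pass the test, with a median of -0.99. With median centring this held for fewer, as 10 fell and 5 rose. Nsg2, a membrane protein, measured 8.37, 8.50 and 8.68 in Naïve cells and was detected on only 1 Th2 array (4.48, 4.59 and 5.45), the largest fitted fall of the list. Klf2, the factor that keeps T cells quiescent and recirculating, measured 11, 11.12 and 10.88 against 8.81, 9.08 and 9.75, a fall of 1.79 on the log2 scale (adjusted p = 1.21e-06) without overlap. Bach2, a repressor of effector genes, fell by 1.67 on the log2 scale (not called with median centring, adjusted p = 0.0835). Foxp1, a factor of naive cell quiescence (-2.14), the antiproliferative gene Btg1 (-2.35), Txnip, an inhibitor of glucose uptake (-1.93), the cytoskeletal gene Actn1 (-3.34) and Ramp1, a receptor partner for the peptide CGRP (-3.03), fell too.

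Ccr7, which guides T cells into lymph nodes, measured 7.45, 7.44 and 6.24 in Naïve cells and 5.39, 5.65 and 6.00 in Th2 cells, a difference of -1.36 (adjusted p = 0.00937) that was -1.16 without Naïve A (0.052) and -0.48, not called, with median centring. Il7r, the IL-7 receptor, did not pass the test between resting states (-0.01, 95% interval -0.58 to 0.56) at 9.79 to 10.76 in Naïve cells, and measured 6.78, 6.48 and 6.80 in stimulated Naïve cells.

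Tcf7, a factor of naive and memory T cells, measured 8.66, 8.39 and 7.48 against 6.91, 7.14 and 7.46, and its fall of 1.01 on the log2 scale (adjusted p = 0.0106) was not called without Naïve A (0.0739), without Th2 A (0.0518) or with median centring (0.902). Lef1, its relative, did not pass the test by its brightest probe (-0.48, adjusted p = 0.165), which fell by 0.88 on the log2 scale without Naïve C (0.00396), and another of its probes fell by 0.79 (0.00236). Bcl2, the survival gene, rose by 1.05 with its brightest probe (adjusted p = 0.00531). Its other probes did not pass the test (0.62, adjusted p = 0.212, and -0.05, 0.768).

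Effector and memory genes split in direction. Of 46 measured, 14 rose (30.4%, against 17.9% of all genes) and 11 fell (23.9%, against 17.6%), with a median of 0.20. With median centring 5 fell. Lgals1, which encodes the lectin galectin-1, measured 7.49, 7.85 and 7.6 in Naïve cells and 11.33, 11.44 and 12.42 in Th2 cells (4.08, adjusted p = 5.84e-09). Il2ra, the high affinity chain of the IL-2 receptor, measured 5.32, 5.49 and 5.21 against 8.50, 7.86 and 8.27 (2.87, adjusted p = 7.48e-10). Vimentin (Vim, 3.18), the calcium binding proteins S100a13 (2.84) and S100a10 (2.39), and annexin Anxa2 (2.25) rose as well. Genes known from cytotoxic cells were among the 11 that fell. Ccl4 measured 11.28, 11.36 and 8.82 in Naïve cells and 6.67, 7.16 and 7.11 in Th2 cells, a difference of -3.51, or -4.34 without Naïve C. Nkg7, a granule membrane protein (-2.67), the chemokine Ccl5 (-1.78), Itgae, the integrin chain CD103 (-3.16), and the receptor Cd160 (-2.66) fell, and the chemokine Xcl1 was at least 4.05-fold lower. Ccl5 and Xcl1 were not called with median centring. Itgae is also in the regulatory T cell list and Cd160 in the NK cell list. Cd44, the memory marker, did not pass the test with its brightest probe (-0.36, adjusted p = 0.271), and another of its probes fell by 0.98 (0.0242).

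T cell receptor signalling genes showed small differences whose direction depended on scaling. Of 35 measured, 3 rose (8.57%, against 17.9% of all genes) and 8 fell (22.9%, against 17.6%), with a median of -0.17. With median centring 5 rose and 0 fell. Themis, an adaptor of the T cell receptor pathway, measured 5.43, 5.75 and 5.28 in Naïve cells and 7.55, 7.02 and 6.79 in Th2 cells (1.63, adjusted p = 5.09e-05). The kinase Fyn (-1.30) and the receptor Cd6 (-1.24) fell, neither called with median centring, and the kinase Zap70 was -0.75 and turned to 0.23 there.

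The lists of the cell cycle held the highest shares of genes that rose. Of 45 measured mitosis genes 39 rose and none fell (86.7% higher, against 17.9% of all genes), with a median of 2.13, or 2.10 with undetected genes at their bound. Of 44 DNA replication genes 35 rose (79.5%) and none fell, with a median of 1.45 (1.29 with bounds). With median centring the counts were close, at 39 and 36 that rose. Of the 100 largest fitted rises of all genes, 17 were mitosis and 5 DNA replication genes. Top2a, which untangles chromosomes, measured 6.19, 6.94 and 7.49 in Naïve cells and 9.80, 10.17 and 10.82 in Th2 cells (3.39, adjusted p = 1.17e-07). Cdk1, the kinase that starts mitosis, measured 5.72, 5.22 and 5.83 against 8.35, 8.56 and 9.06 (3.07, adjusted p = 6.08e-08). Both sets of arrays were far apart. Kif22, a chromosome motor, rose by 2.82, the kinase Plk1 by 2.88, Cdc20, an activator of the anaphase-promoting complex, by 2.84, survivin (Birc5) by 2.80, and cyclin B1 (Ccnb1) by 2.61.

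In the replication list, Mcm10, an initiation factor, rose by 3.32, Uhrf1, which maintains DNA methylation, by 2.91, the ribonucleotide reductase subunit Rrm2 by 2.72, the loading factor Cdc6 by 2.66 and the helicase subunit Mcm5 by 2.06. The sliding clamp Pcna was at least 2.07-fold higher, with an adjusted p of 0.00412 (0.0547 with median centring). Rpa1, which coats single-stranded DNA, did not pass the test (-0.03). Naïve C was the highest Naïve array in 26 of the 39 mitosis and 23 of the 35 replication genes that rose, so it lay nearer to the Th2 arrays there.

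The regulators of cell cycle entry mostly rose: 13 of 20 measured genes rose, against 17.9% of all genes, and 3 fell, against 17.6%. Cdkn1a, the inhibitor p21, measured 7.02, 6.75 and 5.30 in Naïve cells and 9.82, 9.53 and 8.75 in Th2 cells (3.01, adjusted p = 4.46e-05). Cdkn2a and Cdkn2b were not well above background on any Naïve array and were at least 1.48-fold and at least 1.36-fold higher. Cdkn1b, the inhibitor p27 of resting cells, fell by 1.57 on the log2 scale (-0.61 and not called with median centring). Among the D cyclins, Ccnd1 measured 7.84, 7.79 and 8.05 in Naïve cells and was detected on only 1 Th2 array (4.51, 4.31 and 4.62, adjusted p = 5.48e-12), Ccnd2 did not pass the test (-0.01), and Ccnd3 was higher by 0.66 (adjusted p = 0.0144), or 0.43 without Naïve B (0.108).

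Since mitosis genes rose together, the 250 bases before each gene's start were searched for 8 short motifs. With 1 chromosome left out and the first listed window taken per gene, RefSeq windows were used for 8259 of the 10419 tested genes and 38 of the 45 mitosis genes. CCAAT, the core bound by NF-Y, was found on either strand in 26 of the 38 mitosis windows (68.4%), 22 of 37 DNA replication windows (59.5%) and 37.1% of all windows. TTTGAA, the core of the CHR element known from late cell cycle promoters, was in 34.2% of mitosis windows and 11.5% of all, and both motifs together in 28.9% and 4.71%. GGCGGGA, an E2F core, was in 35.1% of DNA replication windows and 17.3% of all. CCAAT was also in 16 of 22 windows of cholesterol and fatty acid genes (72.7%) and 6 of 7 of MHC class II genes (85.7%), which moved in opposite directions. Among all genes at least 2-fold higher and lower its share was 40.0% and 37.8%. The GATA motif AGATAA was in 6.78% of all windows and in 3 of the 8 Th2 cytokine windows, and the STAT6 motif (TTC and GAA with 4 bases between) in 4.58% of all and 5.47% of those of genes at least 2-fold higher. The motif of other STATs (3 bases between) was in 6.20% of all windows, CACGTG, an E box, in 8.26% and the CRE palindrome in 2.48%. The windows of 3 mitosis genes with both motifs, of 1 cholesterol gene and of 2 MHC class II genes are shown 5′ to 3′ along the gene, with CCAAT (or ATTGG) and TTTGAA (or TTCAAA) in capitals. They are from mouse GRCm38.p6 at chr10:69352913-69353162 (Cdk1, minus strand), chr11:99024190-99024439 (Top2a, minus), chr7:127042421-127042670 (Kif22, minus), chr8:64733579-64733828 (Msmo1, minus), chr17:34305617-34305866 (H2-Eb1, plus) and chr17:34152941-34153190 (H2-DMb1, plus). In the mitosis genes the TTTGAA nearest the start began 15 (Cdk1), 23 (Top2a) and 17 (Kif22) bases before it and the nearest CCAAT 48, 58 and 54. In H2-Eb1 CCAAT began 59 and 35 bases before the start, and in H2-DMb1 61. A match is a description of the sequence and not a test of binding.
Cdk1: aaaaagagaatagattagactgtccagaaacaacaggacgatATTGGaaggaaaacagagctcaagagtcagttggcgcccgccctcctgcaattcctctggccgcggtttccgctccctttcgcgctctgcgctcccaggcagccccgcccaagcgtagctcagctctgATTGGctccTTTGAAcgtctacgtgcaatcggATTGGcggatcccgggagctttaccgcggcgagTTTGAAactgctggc
Top2a: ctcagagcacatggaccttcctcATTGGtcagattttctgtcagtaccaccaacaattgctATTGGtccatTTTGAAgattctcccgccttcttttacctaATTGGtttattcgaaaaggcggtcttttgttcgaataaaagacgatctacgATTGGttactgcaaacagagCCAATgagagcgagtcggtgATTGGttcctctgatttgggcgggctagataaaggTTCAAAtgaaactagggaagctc
Kif22: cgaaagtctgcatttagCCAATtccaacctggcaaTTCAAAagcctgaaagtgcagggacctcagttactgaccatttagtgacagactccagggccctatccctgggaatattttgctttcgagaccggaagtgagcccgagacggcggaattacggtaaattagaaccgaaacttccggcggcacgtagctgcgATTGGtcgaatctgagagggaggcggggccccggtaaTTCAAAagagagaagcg
Msmo1: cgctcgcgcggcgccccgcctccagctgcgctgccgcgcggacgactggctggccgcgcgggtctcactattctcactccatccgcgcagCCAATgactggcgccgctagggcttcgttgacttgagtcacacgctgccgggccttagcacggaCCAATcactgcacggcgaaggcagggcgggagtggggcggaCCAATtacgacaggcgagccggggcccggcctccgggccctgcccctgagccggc
H2-Eb1: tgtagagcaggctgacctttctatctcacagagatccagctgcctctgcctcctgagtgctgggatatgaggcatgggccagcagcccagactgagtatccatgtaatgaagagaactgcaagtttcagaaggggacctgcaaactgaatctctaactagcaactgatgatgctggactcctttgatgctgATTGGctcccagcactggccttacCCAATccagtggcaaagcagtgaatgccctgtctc
H2-DMb1: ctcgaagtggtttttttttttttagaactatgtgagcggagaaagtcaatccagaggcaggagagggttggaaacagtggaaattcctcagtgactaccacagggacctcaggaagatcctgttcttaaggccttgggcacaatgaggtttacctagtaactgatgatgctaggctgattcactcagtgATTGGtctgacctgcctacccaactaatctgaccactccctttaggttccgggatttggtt

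Metabolic genes often rose as well. The shares of genes that rose, here and in the next paragraphs, compare with 17.9% of all genes. Of 20 measured genes of glycolysis and glucose uptake 12 rose (60.0%) and 0 fell, with a median of 1.08. Tpi1, an enzyme of the middle of glycolysis, measured 8.28, 9.0 and 9.35 in Naïve cells and 11.60, 11.63 and 12.21 in Th2 cells (2.93, adjusted p = 3.47e-08). Aldoc, an aldolase, was not well above background on any Naïve array and at least 6.31-fold higher in Th2 cells, and Aldoa rose by 2.79, Gapdh by 1.69 and hexokinase Hk2 by 1.15. Hif1a, the hypoxia factor that drives glycolytic genes, rose by 2.57. The glucose transporter Slc2a1 was higher by 0.65 and did not pass the test (adjusted p = 0.119), and without Th2 C it was 0.95 (0.0357). Of 50 respiratory chain genes 32 rose (64.0%) and 1 fell, with a median of 0.78 (0.64 with bounds). Ndufb9 (1.70) and Ndufa1 (1.63), subunits of complex I, and Cox6c (1.35), of cytochrome c oxidase, rose. Cycs, which encodes cytochrome c, was the gene that fell (-0.52), a call lost without Naïve A (0.0905), Naïve C (0.0564) or Th2 C (0.0524).

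Of 30 measured genes of cholesterol and fatty acid synthesis 18 rose (60.0%) and 1 fell, with a median of 1.04. Fdps, which makes farnesyl diphosphate, measured 8.65, 8.44 and 8.73 in Naïve cells and 10.55, 11.37 and 10.27 in Th2 cells (2.12, adjusted p = 2.55e-06). Th2 C was low in several of these genes. Msmo1, a sterol demethylation enzyme, measured 5.89, 5.07 and 6.22 against 8.42, 8.62 and 6.36 (2.07, adjusted p = 0.00465), and 2.79 without Th2 C. Hmgcs1, the enzyme before the rate-limiting step, measured 9.97, 9.78 and 9.65 against 11.56, 12.28 and 9.60 and did not pass the test (1.35, adjusted p = 0.0506), and rose by 2.12 without Th2 C (0.00134). The desaturase Scd2 was at least 2.49-fold higher, and Sqle, squalene epoxidase, rose by 1.38. Acss2, which makes acetyl-CoA from acetate, fell by 1.18 on the log2 scale (-0.23 and not called with median centring).

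Amino acid genes rose in 20 of 39 measured members (51.3%) and fell in 1, with a median of 0.60 (0.49 with bounds). Asns, asparagine synthetase, measured 4.59, 4.83 and 7.73 in Naïve cells and 9.51, 9.84 and 9.27 in Th2 cells (3.82, adjusted p = 1.17e-05), and 4.82 without Naïve C. Trib3, a target of the amino acid stress factor ATF4, rose by 3.48, or 4.27 without Th2 C. Psat1, of serine synthesis, rose by 2.77, the transporter Slc7a5 by 1.6, and Chac1, which degrades glutathione, was at least 2.92-fold higher. Atf4 itself did not pass the test (0.76, adjusted p = 0.0824). The transporter Slc38a2 fell by 1.91 on the log2 scale with its brightest probe (-1.30 without Th2 C). It was not called with median centring (-0.92, adjusted p = 0.261). Its other probes did not pass the test (0.42, adjusted p = 0.486, and -0.15, 0.591).

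Of 36 ribosome biogenesis genes 13 rose (36.1%) and 1 fell, with a median of 0.47, and with median centring 22 rose. Nop10, of the pseudouridylation complex, rose by 1.64 and Bop1, a large subunit assembly factor, by 1.53, while Imp4 was -0.56 (adjusted p = 0.00761) and turned to 0.37 with median centring, and another of its probes rose by 0.48 (0.0345). Myc, a factor known to drive ribosome production, did not pass the test (0.49, adjusted p = 0.237), and was 0.91 without Th2 C (0.0226) and 0.15 without Th2 B. Of 58 cytosolic ribosomal proteins 9 rose and 0 fell (15.5% higher, against 17.9% of all genes), and the direction of this family depended on scaling, with 5 that rose and 11 that fell under Z-scores and 35 that rose under median centring. Without Naïve B 14 rose.

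**Figure D3:**
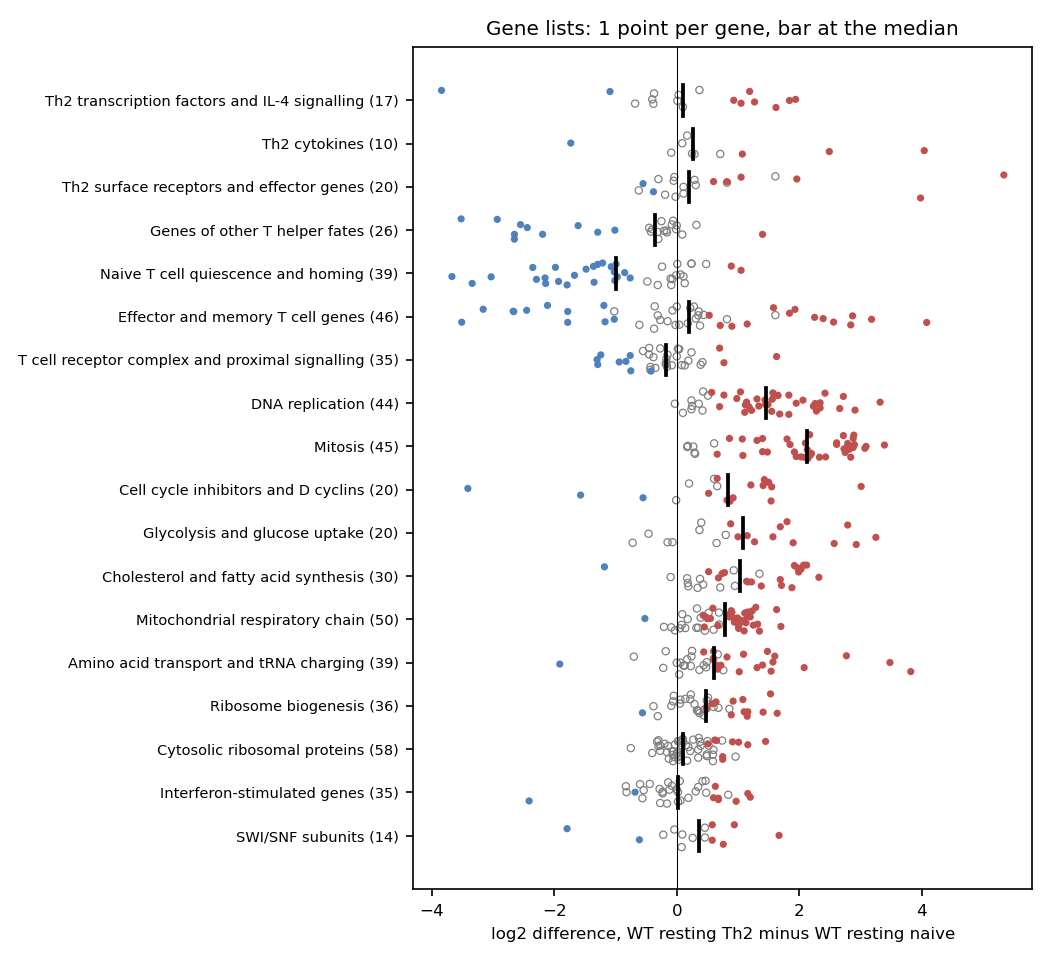
Log2 difference between WT resting Th2 and WT resting Naïve cells for each measured gene of 18 lists (number of genes in brackets), with genes that rose in red, genes that fell in blue, genes not called as open circles and a bar at the median. The medians of mitosis (2.13) and DNA replication (1.45) lie farthest to the right and that of naive genes (-0.99) farthest to the left.

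Of 14 measured SWI/SNF subunits 5 rose (35.7%, against 17.9% of all genes) and 2 fell (14.3%, against 17.6%), and 1 fell without Naïve B, Th2 A or Th2 B. Pbrm1, which encodes BAF180, measured 8.20, 8.72 and 8.69 in Naïve cells and 9.06, 9.06 and 8.88 in Th2 cells, and did not pass the test (0.46, adjusted p = 0.125), while it was 0.30 without Naïve A and 1.32 with median centring (0.0382). Smarca2, the ATPase Brm, measured 10.37, 10.42 and 10.08 against 8.83, 8.59 and 8.08, a fall of 1.79 on the log2 scale (adjusted p = 9.06e-06) that was not called with median centring (-0.80). Smarca4, the alternative ATPase BRG1, was higher by 0.58 (adjusted p = 0.0126), a call lost without Naïve A (0.0666) or Th2 B (0.0664). The core subunit Smarcb1 rose by 1.67. Interferon-stimulated genes rose in 7 of 35 (20%, against 17.9% of all genes) and fell in 2 (5.71%, against 17.6%), with a median of 0.02. The number that rose was 4 without Naïve A, 2 without Th2 A and 3 without Th2 B, the number that fell was 4 without Th2 B and 1 without Th2 C, and in BAF180-deficient cells 1 rose and 8 fell. Ifit3, an antiviral gene, fell by 2.41 on the log2 scale.

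Among the 12 largest rises of genes detected on all 6 arrays, several belonged to none of the lists above. Myo6, an unconventional myosin, measured 6.92, 7.16 and 8.38 in Naïve cells and 11.85, 11.86 and 11.49 in Th2 cells (4.24, adjusted p = 1.26e-05). Serpinf1, a secreted serpin, rose by 3.90, and Socs2, a suppressor of cytokine signalling, measured 7.66, 7.09 and 7.55 against 11.53, 11 and 10.15 (3.46, adjusted p = 1.53e-08). The histone gene H2ac11 rose by 3.17 and the membrane protein Plp2 by 3.06. Ltb4r1, a leukotriene B4 receptor that is in the neutrophil list and is known in effector T cells too, measured 5.62, 4.95 and 6.05 against 8.81, 9.24 and 9.36 (3.6, adjusted p = 1.70e-08). Among genes not well above background on any Naïve array, the highest bounds after Il24 were those of Akr1c18, a steroid dehydrogenase (at least 10.2-fold, with 9.57, 6.5 and 8.55 in Th2 cells and a fitted difference of 3.29 without Th2 A and 4.83 without Th2 B), AA467197 (7.07), Phlda3, a p53 target (6.36), Aldoc (6.31), a, the agouti signalling protein (5.83), and Diaph3, a formin (5.20).

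Many transcripts of other cell types fell. The 12 marker lists of cells other than T helper cells held 109 measured genes, of which 61 fell (56.0%, against 17.6% of all genes), 2 rose and 46 did not pass the test, and 52 fell by at least 2-fold (47.7%, against 8.01%). Outside these lists 1775 genes fell, 783 of them by at least 2-fold, so the listed markers were a small part of all falls. Of the 100 largest fitted falls of all genes, 21 were listed markers. Without each array in turn, 55 to 68 of the 109 markers fell (56 without Naïve C).

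Macrophage genes were at high levels in Naïve cells. Of 26 listed monocyte and macrophage markers on the arrays, 21 passed the detection filter. All 21 fell (100%, against 17.6% of all genes), with a median of -3.16 (-2.75 with bounds). Of them 14 were not well above background on any Th2 array. Since most were detected mainly on resting Naïve arrays, the filter itself favoured markers that fell, and their count is no test. Slc40a1, the iron exporter ferroportin, measured 12.25, 11.55 and 12.55 in Naïve cells and was not well above background in Th2 cells, at least 183-fold lower (adjusted p = 4.54e-17). Vcam1, an adhesion molecule of splenic macrophages and endothelium, was at least 103-fold lower, the complement genes C1qb and C1qc at least 52.9-fold and 37.1-fold, and Spic, the factor of iron-recycling red pulp macrophages of the spleen, at least 35.75-fold (10.49, 9.56 and 9.23 in Naïve cells). Lyz2, a myeloid lysozyme, measured 8.95, 8.85 and 11.48, highest on Naïve C, and was at least 35.8-fold lower in Th2 cells. Without Naïve C its fitted difference was -4.68.

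The summed intensity of the 21 genes, on the linear scale, was 11942.1 to 24989.1 on Naïve arrays, with 20 or 21 genes detected, and 509.9 to 555.5 on Th2 arrays, with 3 to 6 detected. It was 436.9 to 489.7 in stimulated Naïve cells. In BAF180-deficient cells it was 13558.4 to 20298.3 in resting Naïve and 484.7 to 503.6 in resting Th2 cells. The sums of resting Naïve cells of both genotypes thus lay apart from those of all cultured WT cells. How many macrophages these sums stand for, and their part in other differences of this comparison, was not tested.

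All 10 MHC class II genes, which B cells, macrophages and dendritic cells use to present antigen, fell as well. H2-Eb1 measured 11.78, 11.83 and 11.99 in Naïve cells and 6.57, 5.96 and 7.43 in Th2 cells (-5.22, adjusted p = 4.15e-09), and H2-Ab1 measured 12.79, 12.42 and 12.59 against 8.02, 8.29 and 9.36 (-4.04, adjusted p = 2.50e-07). Cd74, the invariant chain (-3.94), and the peptide loading gene H2-DMb1 (-2.98) fell as well. Ciita, the master factor of these genes, was at least 6.68-fold lower. The summed level was 17024.9 to 20799.0 on Naïve and 1239.5 to 2215.6 on Th2 arrays. Of these genes 7 of 10 were detected on all 6 arrays, against 1 of the 21 macrophage genes.

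B cell markers fell in 7 of 17 (41.2%, against 17.6% of all genes). Fcrla, a B cell Fc receptor-like gene (-3.73), Ly86, a partner of the receptor RP105 (-2.83), and Cd79a, a chain of the B cell receptor (-1.68), fell, the last not called with median centring (-0.87). Of the defining markers, Ms4a1 (CD20) was not well above background on any of the 6 arrays, and Cd79b did not pass the test. Cd79b measured 7.50, 7.74 and 9.24 against 5.88, 4.74 and 7.88 (-1.99, adjusted p = 0.0539), -2.84 without Th2 C (0.00963) and -1.27 without Th2 B (0.26). Of 8 dendritic cell markers 5 fell (62.5%). Among them were Siglech (-2.96) and Tcf4 (-2.35), both known in plasmacytoid dendritic cells, and Irf8 (-1.55, not called with median centring). The summed level of the 17 B cell genes was 1716.8 to 2813.7 on Naïve and 461.0 to 1539.2 on Th2 arrays, and that of the 8 dendritic cell genes 831.5 to 1128.8 and 264.8 to 397.5. In WT stimulated cells the B cell sum was 836.7 to 1212.1 (Naïve) and 1059.3 to 1995.2 (Th2), the latter overlapping resting Naïve cells. The dendritic cell sum there was 463.7 to 651.4 and 384.1 to 528.6.

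Neutrophil and erythroid genes varied widely among the Naïve arrays. Of 14 neutrophil markers 7 fell (50.0%, against 17.6% of all genes), and all 7 were highest on Naïve C. The count was 11 without Naïve A and 4 without Naïve C. S100a8 measured 8.56, 7.14 and 10.80 in Naïve cells and was not well above background in Th2 cells, at least 18.8-fold lower (adjusted p = 1.55e-06), and its fitted difference of -4.64 was -3.66 without Naïve C and -5.49 without Naïve B. Of 11 erythroid markers 4 fell (36.4%, and 7 without Naïve A, 9 without Naïve B). Hba-a1, an alpha globin, measured 11.21, 8.28 and 13.55 in Naïve cells and 6.94, 7.01 and 4.63 in Th2 cells. Its difference of -4.82 (adjusted p = 0.00054) was -3.55 without Naïve C (0.00401), -6.19 without Naïve B and -4.04 without Th2 C. Slc4a1, the red cell anion exchanger, was detected on 2 Naïve arrays (8.17 and 11.80 on A and C) and no Th2 array, at least 12.8-fold lower (adjusted p = 0.00206). Its fitted difference was -2.22 without Naïve C and -5.69 without Naïve B. The summed level of the erythroid genes ran from 535.3 to 16753.5 on Naïve arrays with 3 to 11 genes detected, and from 222.0 to 334.3 on Th2 arrays. That of the neutrophil genes ran from 481.6 to 3239.5 on Naïve arrays with 4 to 14 detected, and from 709.8 to 922.3 on Th2 arrays, Ltb4r1 included.

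The remaining lists were low or mixed. NK cell markers fell in 4 of 7 (57.1%, against 17.6% of all genes), with summed levels of 358.6 to 613.0 on Naïve and 138.3 to 173.8 on Th2 arrays. Mast cell and basophil markers fell in 2 of 3 (66.7%) and stromal and endothelial markers in 1 of 7 (14.3%). The mast cell and basophil count was 1 without Naïve A, Naïve B, Th2 A or Th2 C. The stromal count was 3 without Naïve A and 0 without any other 1 array. No plasma cell marker of 3 was called. Their summed levels on replicates A, B and C were 190.5, 385.6 and 756.1 in Naïve cells and 1128.8, 249.2 and 2329.9 in Th2 cells. No platelet marker of 7 fell, and F2rl3 rose by 1.54, while the defining platelet genes Pf4 and Ppbp were detected on 1 and 0 of the 6 arrays. Cd8b1 was detected on all 6 arrays and did not pass the test (-0.59, adjusted p = 0.318), while another of its probes fell by 1.16 on the log2 scale (0.000913). Regulatory T cells express CD4, for which the kit selects. Of 9 markers of these cells 6 fell (66.7%, against 17.6% of all genes) and 2 rose (22.2%, against 17.9%), and 3 fell with median centring. Foxp3, the defining factor of these cells, measured 9.0, 9.05 and 8.43 in Naïve cells and 5.79, 5.75 and 6.14 in Th2 cells (-2.93, adjusted p = 3.70e-08). Ikzf2 (-2.55) and Gpr83 (-2.43) fell as well. The 2 that rose, Il2ra and Tnfrsf18, are also in the effector list and are known to be induced by activation.

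**Figure D4:**
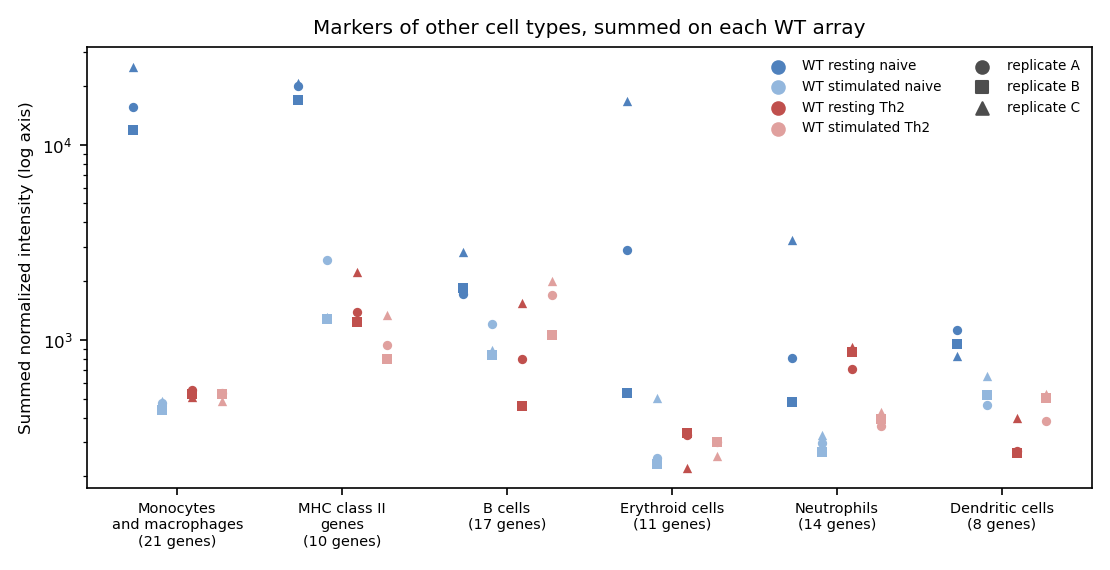
Sum of the normalized intensities of the marker genes of 6 cell types (log axis, arbitrary units) on each array of the 4 WT states, with circles, squares and triangles for replicates A, B and C. The macrophage sums of resting Naïve cells (11942.1 to 24989.1) lie far above those of all cultured cells, and the erythroid and neutrophil sums are highest on resting Naïve array C.

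Outside the marker lists, the largest falls of genes detected on all 6 arrays were led by Egr1, Fos and Cfp. Egr1, an immediate early transcription factor, measured 12.09, 12.09 and 10.74 in Naïve cells and 6.46, 6.72 and 6.03 in resting Th2 cells, a fall of 5.23 on the log2 scale (adjusted p = 1.56e-10). Fos, the AP-1 partner of JUN proteins, measured 11.23, 11.11 and 11.46 against 6.61, 6.72 and 4.82 (-5.22, adjusted p = 2.60e-10, and -4.60 without Th2 C). Dusp1, a MAP kinase phosphatase induced by stress and growth signals, measured 11.74, 11.59 and 11.69 against 7.19, 6.79 and 6.94 (-4.70, adjusted p = 2.83e-13). The states were far apart in all 3. Cd69, an early activation antigen that holds lymphocytes in tissue, fell by 4.33 on the log2 scale. The stress phosphatase subunit Ppp1r15a (-4.37), Tnfaip3, an inhibitor of NF-kappaB (-3.96, and -4.60 without Naïve C), the nuclear IkappaB gene Nfkbid (-3.93) and the clock gene Per1 (-3.85) fell too. Fosb, a relative of FOS, was at least 19.8-fold lower, with a fitted difference of -4.12 without Naïve A. Naïve C was the lowest Naïve array in 8 of the 12 largest falls of this kind.

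In stimulated Naïve cells these genes went apart. Egr1 measured 10.89, 10.93 and 10.07 there and Cd69 10.58, 10.67 and 10.08, between the 2 resting states and nearer to resting Naïve cells, whereas Fos measured 5.57, 5.59 and 5.41, below the level of resting Naïve cells.

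Other genes outside the lists were high in Naïve cells and not well above background in Th2 cells. Fcna, the lectin ficolin A of macrophages, measured 11.35, 10.55 and 12.25 in Naïve cells and was not well above background in Th2 cells, at least 110.3-fold lower. The mannose receptor Mrc1 (at least 33.7-fold), the cytokine gene Il1b (at least 30.3-fold), Epb41l3 (at least 29.1-fold), the Fc receptor Fcgr4 (at least 24.3-fold), LOC381924 (at least 44.2-fold) and H2-M2 (at least 18.7-fold) were not well above background on any Th2 array either. In stimulated Naïve cells Il1b measured 5.55, 4.65 and 6.14 and H2-M2 5.77, 4.4 and 4.77. Of genes detected on all 6 arrays, Cfp, which encodes the complement factor properdin, fell by 5.02 on the log2 scale, and the heme-binding protein gene Hebp1 (-3.98) and the linker histone gene H1f2 (-4.67) fell too. Counted over all falls of at least 2-fold, 11 of the 52 marker genes (21.2%) and 78 of the 783 other genes (9.96%) were detected on all 3 resting Naïve arrays and on none of the 9 arrays of WT cells that had been in culture. Another 23 of the 783, and 1 of the 52, were undetected in resting Th2 cells and detected on all 3 stimulated Naïve arrays. Whether these 78 genes came from T cells or from other cells was not tested.

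**Figure D5:**
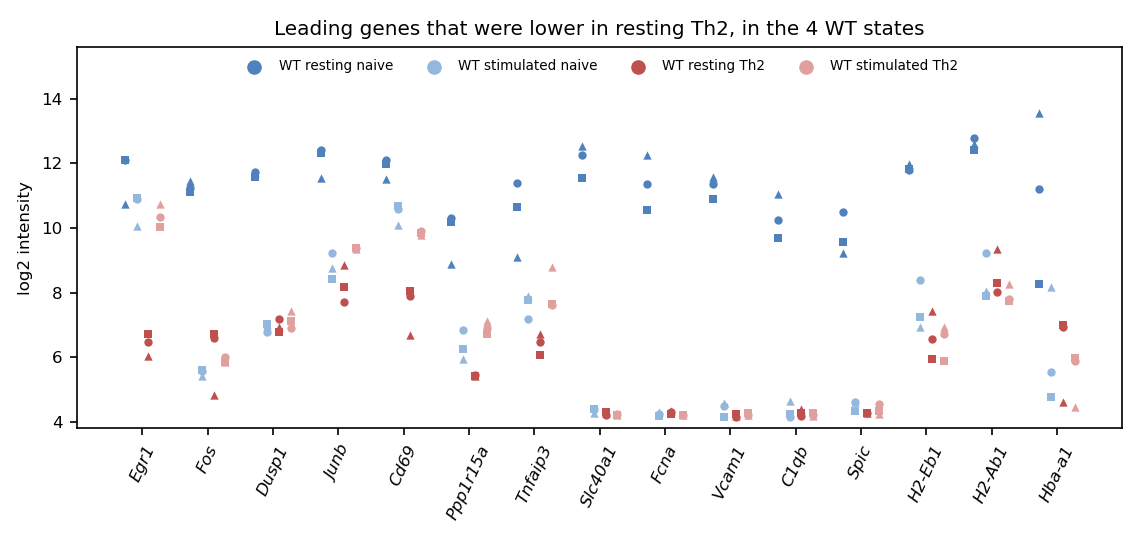
Log2 intensity of 15 genes that fell, on each array of the 4 WT states, with circles, squares and triangles for replicates A, B and C. Slc40a1, Fcna, Vcam1, C1qb and Spic lie at the level of undetected probes in all cultured cells, while Egr1 and Cd69 remain above 10 in stimulated Naïve cells.

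The same comparison in BAF180-deficient cells took its means from other arrays. The variance of each probe came from 1 fit of all 24 arrays and was shared, so the calls are not independent. It called 1897 genes higher (18.2%) and 1822 lower (17.5%). Of the 1864 genes that rose in WT cells 1467 (78.7%) rose there too, and of the 1836 that fell 1427 (77.7%) fell. Only 38 of the 3700 genes called in WT cells had the opposite sign (1.03%), and 1 had the opposite call, Igfl3 (fitted differences 0.46 and -0.45), which was not well above background on any WT Naïve array. Among genes that changed at least 2-fold, the 1 of opposite sign was the interferon-stimulated gene Cmpk2 (1.16 and -0.01). All 21 macrophage markers that passed the detection filter and all 10 MHC class II markers fell in BAF180-deficient cells as well. There 41 of 45 mitosis and 39 of 44 DNA replication genes rose. A test of the difference between the genotypes called 1 of 14246 probes, that of 4930486L24Rik, at an adjusted p of 0.0394, and 387 probes had an unadjusted p below 0.05. The count was 0 without Naïve B, Th2 A or Th2 B, 2 without Th2 C and 6 without Naïve C.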

How the data were processed

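The labels give Illumina MouseRef-8 v2 arrays, 3 for each of 8 groups of genotype, cell state and stimulation. The deposited table held, for each array, an intensity per probe (the mean bead signal, not normalized) and a detection p-value. The submitters' processing notes name GenomeStudio 1.6.0, and the authors worked with Z-scores of these intensities in the study. Here the deposited intensities of all 24 arrays were background-corrected from the detection p-values (neqc, offset 16), quantile-normalized and put on the log2 scale in R 4.3.3 with limma 3.58.1. Summaries used Python 3.11.15, pandas 2.3.3 and numpy 2.4.6.

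A probe was detected at a detection p of 0.02 or less, and 14246 of 25697 probes, detected on at least 1 array, were kept. Linear models with 8 group means and moderated variances (16 residual degrees of freedom) gave each difference, adjusted by Benjamini-Hochberg over all kept probes. The number of arrays limits the precision, and the median 95% interval follows from a median standard error of 0.194. A gene was taken by its brightest kept probe and called at an adjusted p below 0.05. Of 2681 genes with more than 1 kept probe, 29 had probes with opposite calls. For some genes named above, such as Asns, Trib3, Tcf7 and Fyn, a dimmer probe did not pass the test and is not listed. Probes were named through RefSeq by Entrez ID (16938), accession (7420), symbol (465) or synonym (552), or kept the symbol of the table (322). Where a probe was detected on no array of a group and on 1 or more of the other, a fold is given as a bound if it is above 1. Such a bound compares the mean over all arrays of the detected group with, per array, the higher of the lowest detected signal and the probe's own signal. Replicates held equal intensities for at most 0.93% of probes, so all were counted. The fit was tested on simulated data.

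Named are the 12 largest rises and the 12 largest falls among called genes detected on all 6 arrays whose groups did not overlap, with the falls also named after leaving out the marker lists. The 8 highest bounds on each side, a few genes from each end of every gene list with those that define its role, and Pbrm1 and Il10 are named too. The genes described and the lists were chosen with earlier results of these data known. Alternatives tried were a replicate block, other sets of arrays in the fit, Z-scores, median centring, no background correction, 2 other detection filters, other variance models, leaving out each array, any probe of a gene and the thresholds of the study's methods, which join a Z ratio (1.5), a false discovery rate (0.3), a p (0.05) and a mean signal above 0, the last of which was not applied here. Some genes that this rule names are not reported here.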

Additional observations from a re-analysis of the deposited data

Results flagged for a closer look

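The probe of 4930486L24Rik, a gene without a settled role, stood out because its rise from the Naïve to the Th2 state differed with genotype. It measured 6.11, 5.86 and 5.49 in WT Naïve cells and 7.52, 7.89 and 8.05 in WT Th2 cells, a rise of 2.00. In BAF180-deficient cells it measured 4.43, 4.52 and 4.29 against 7.81, 7.85 and 7.83, a rise of 3.42. The difference of the differences was -1.42 (adjusted p = 0.0394, limma interaction term over all kept probes). The Th2 levels were close and the WT Naïve levels were above the BAF180-deficient ones. The count of probes called by this test depended on the processing, with 0 under 8 of the alternatives that keep all arrays.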

How the results depend on the processing

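Of 193 named genes, 166 were called, and 131 had the same call under all 18 alternatives. With median centring 485 genes fell, 1997 rose and 263 fell by at least 2-fold, and Zap70 (0.23) and Imp4 (0.37) changed sign. With Z-scores 520 fell by at least 2-fold, and without background correction 479 rose and 546 fell by at least 2-fold. The thresholds of the methods for Z ratio, false discovery rate and p were also set on the log2 differences and limma p-values used here. In place of the Z ratio, each difference was divided by the SD of all differences, without Z-scores. By this rule 531 rose, all by at least 2-fold, and 596 fell. Leaving out each array gave 1501 to 1839 genes that rose, 1490 to 1970 that fell, 751 to 915 and 788 to 903 by at least 2-fold, and 55 to 68 markers of other cell types that fell. The test between genotypes called 0 to 6 probes when an array was left out. It called 0 probes under the replicate block (lowest adjusted p 0.226), Z-scores (1.0), median centring (1.0), no background correction (0.904), no detection filter (0.0561), a stricter one (0.0678), no moderated variances (0.0775) and an intensity trend (0.24), and could not be computed from the 6 WT arrays alone. The causes were not tested. A fit of the 6 arrays alone called 1391 genes higher and 1286 lower, and 16 named genes lost their calls, among them Nfil3, Tcf7, Il4ra, Bcl2, Sqle, Ccl5 and Slc4a1.

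The sources do not tie a letter to 1 mouse across states, and the replicate letters were not taken as pairs: deviations of same-letter Naïve and Th2 arrays correlated at 0.105 (A), 0.116 (B) and 0.0172 (C), each the highest for its letter. With the letter as a replicate block, 1964 genes rose, 1933 fell, 815 rose and 847 fell by at least 2-fold, and 66 markers fell, and 6 named genes gained calls, among them Cd3e (-0.55, adjusted p 0.00177), Icos and Hmgcs1. Array intensities give no read depth. Probes near background bound the fold that could be seen, since 124 of the genes that rose by at least 2-fold were undetected on all Naïve arrays and 178 of those that fell on all Th2 arrays.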
